A study of Mus musculus with 9 samples.

Results

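The ubiquitin-conjugating enzymes, whose mouse gene names begin with Ube2, and the ubiquitin-specific proteases, named Usp with a number, were followed in colon RNA of mice from a chemical model of colorectal cancer and of untreated mice. The members were every probe whose platform gene symbol begins with Ube2 or with Usp and a digit, without Usp18. This gave 92 probes of 76 genes, of 26423 probes in all, with 37 probes of 29 Ube2 genes and 55 probes of 47 Usp genes. No probe was left out for a low value, so all 92 entered every test.

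Colon of 3 groups was measured, all from female BALB/c mice. Vanillin mice received the carcinogen azoxymethane (AOM), repeated courses of dextran sodium sulfate (DSS), an agent that damages the colon lining, and 100 mg/kg oral vanillin, the flavour compound of vanilla, for 91 days. Sham mice received AOM and DSS without vanillin, with AOM injected at 12.5 mg/kg on day 1 and 2.5% DSS in the drinking water for 5 days from day 8, followed by 16 days of water, and this was repeated in 3 additional cycles. Mock mice were untreated. Each group has 3 arrays. There is no group with AOM alone, DSS alone or vanillin alone among these arrays, so AOM and DSS cannot be told apart, and the effect of vanillin without them was not analysed here. Whether the arrays of one group stand for different animals is not stated, and the tests therefore speak of the variation among these 9 arrays, part or all of which may be technical.

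The platform measures each probe as one fluorescence intensity, and the number of arrays limits the precision. Within a group, the arrays correlated at 0.995 to 0.998 over all probes, and 20% of the probes lay under an intensity of 50 on each array. Member probes varied about as much as other probes, with a median SD between arrays on the log2 scale of 0.077 in Vanillin, 0.070 in Sham and 0.055 in Mock, against 0.083, 0.079 and 0.061 over all probes. The tissue label was set against marker genes. As a set, colon epithelium markers were present in all groups. Over 16 genes their summed intensities were 363647 to 369776 in Vanillin, 393145 to 404893 in Sham and 409332 to 419565 in Mock. Not every marker was bright, since 2 in Vanillin, 1 in Sham and 1 in Mock had a mean under 50. Single markers differed far more than these sums. In Sham against Mock 6 of the 16 were higher and 4 lower, among them Cdx2 (3.13), Muc2 (1.35), Slc26a3 (-2.98) and Car4 (-2.60, all log2 changes), and in Vanillin against Sham 9 were lower and 0 higher, with 7 not called. The part of these epithelial changes in the members' levels was not tested. Markers of tissues other than colon mucosa were also bright and differed widely between groups. The 15 squamous epithelium markers summed to 351169 to 402352 in Vanillin, 28013 to 29290 in Sham and 625696 to 628889 in Mock, and 12 adipocyte and 8 skeletal muscle markers had the same order of groups. In such whole-tissue RNA, fewer cells of a type and less RNA per cell cannot be told apart.

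Ubiquitin is a small protein that is attached to other proteins through a relay of activating, conjugating and ligating enzymes (E1, E2 and E3). The E2, which the Ube2 genes encode, carries the activated ubiquitin and often decides which kind of chain is built, and the chain decides whether the target is sent to the proteasome, moved within the cell or given a part in signalling. The Usp enzymes are the most numerous family of deubiquitinases and cut ubiquitin off again. Both sides of this balance act in NF-κB signalling, cell division and DNA repair, which is why they are studied in inflamed and tumour-bearing colon.

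The promoters of the genes with the largest changes on each side are shown first. The windows are the 250 bases before the annotated start, on the strand of the gene, from RefSeq on the GRCm38.p6 build. Capitals mark CCAAT or its reverse ATTGG, the box bound by NF-Y that is common in cell cycle genes. They also mark TTTGAA or its reverse TTCAAA, a form of the core of the cell cycle homology region. Other forms of this core were not searched for. Ube2c lies at chr2:164769679-164769928 on the plus strand, Ube2s at chr7:4812341-4812590 on the minus strand, Ube2t at chr1:134962315-134962564 on the plus strand and Usp2 at chr9:44084670-44084919 on the plus strand.
Ube2c: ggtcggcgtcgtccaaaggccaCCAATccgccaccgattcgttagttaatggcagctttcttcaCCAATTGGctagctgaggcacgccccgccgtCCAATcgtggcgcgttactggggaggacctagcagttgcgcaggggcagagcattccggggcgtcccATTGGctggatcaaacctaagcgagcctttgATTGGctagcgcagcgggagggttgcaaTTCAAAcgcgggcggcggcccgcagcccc
Ube2s: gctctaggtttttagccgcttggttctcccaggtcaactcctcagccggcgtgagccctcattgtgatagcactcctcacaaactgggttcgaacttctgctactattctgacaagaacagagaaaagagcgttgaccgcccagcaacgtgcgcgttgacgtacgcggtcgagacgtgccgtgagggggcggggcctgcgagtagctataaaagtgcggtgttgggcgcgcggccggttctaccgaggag
Ube2t: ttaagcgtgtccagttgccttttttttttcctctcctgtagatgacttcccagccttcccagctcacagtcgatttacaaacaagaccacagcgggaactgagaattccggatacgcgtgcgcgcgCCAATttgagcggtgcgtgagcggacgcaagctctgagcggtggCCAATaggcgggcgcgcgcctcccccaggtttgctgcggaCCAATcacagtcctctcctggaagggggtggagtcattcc
Usp2: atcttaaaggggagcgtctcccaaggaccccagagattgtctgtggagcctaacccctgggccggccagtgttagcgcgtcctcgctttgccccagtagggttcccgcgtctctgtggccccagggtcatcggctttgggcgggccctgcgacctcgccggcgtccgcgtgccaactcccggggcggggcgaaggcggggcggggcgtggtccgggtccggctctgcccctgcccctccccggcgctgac
The Ube2c window holds 6 matches to CCAAT on either strand, at 228, 186, 183, 155, 88 and 57 bases before the start, of which those at 186 and 183 overlap on opposite strands, and 1 match to TTTGAA at 29 bases. The Ube2t window holds 3 CCAAT matches, at 124, 80 and 40 bases before the start. Neither motif, nor CACGTG, the E-box bound by the circadian clock factors, was found in these letters of Ube2s or Usp2. Over 32851 promoter windows of the same length, 33.8% held at least 1 CCAAT, 0.058% held 6 or more, 16.0% held TTTGAA and 6.0% held CACGTG. Of 69 windows matched to 60 member genes, 13 held CCAAT, 5 held TTTGAA and 6 held CACGTG, or 18.8%, 7.2% and 8.7%. The other 16 member genes were not matched to a promoter entry. A match is a run of letters and not a binding site.

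The AOM and DSS course was compared with no treatment first. Many of these enzymes were higher in Sham than in Mock colon, led by Ube2t, Ube2c, Ube2s and Usp43, and a smaller group was lower, led by Usp2, Usp13 and Usp54. By the test used throughout, limma on log2(intensity + 16) with Benjamini-Hochberg adjustment over all 26423 probes, 58 of the 92 member probes (63%) were called in Sham against Mock at an adjusted p under 0.05, 40 higher and 18 lower. Called probes made up 59.7% of the whole array, so the members' share was near that of all probes. Split by direction, 43.5% of the member probes were higher and 19.6% lower, against 36.5% and 23.2% of all probes. The Sham arrays did not overlap the Mock arrays in 67 member probes (72.8%), against 67.1% of all probes. Taken per gene at its brightest probe, 33 genes were higher, 16 lower and 27 not called, with a median log2 change of 0.12, against 0.10 over all probes. Among the Ube2 genes 18 were higher and 6 lower, and among the Usp genes 15 were higher and 10 lower. Without the dimmest 30% of probes, 71.5% of the probes left were called, with 40 member probes higher and 17 lower. How many member probes were left is not given, here or for the other comparisons below. These member counts therefore cannot be turned into a share beside that of all probes.

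The difference that goes with vanillin was read from Vanillin against Sham. These groups also differed widely in the tissue markers given above, and the part of tissue content in the differences was not tested. Most called members were lower in Vanillin, among them Ube2t, Ube2s, Ube2b and Ube2c, while Usp2, Usp13, Usp25 and Usp54 were higher. Of the member probes 56 (60.9%) were called, against 47.9% of all probes, with 12 higher and 44 lower in Vanillin. By direction these are 13% and 47.8% of the member probes, against 15.7% and 32.2% of all probes. The Vanillin and Sham arrays did not overlap in 62 member probes (67.4%), against 56.3% of all probes. Per gene, 12 were higher, 35 lower and 29 not called, with a median log2 change of -0.12, against -0.09 over all probes. Of the 29 Ube2 genes, 15 fell and 4 rose. The count of higher member probes was 7 without Vanillin replicate 2. Without the dimmest 30% of probes, 59.2% of the probes left were called, with 14 member probes higher and 41 lower. The excess over all probes in these shares is thus given with dim probes included. In Vanillin against Mock, 28 member probes were higher and 24 lower, or 30.4% and 26.1% of them, against 24.5% and 26.2% of all probes. Together these 52 are 56.5% of the members, against 50.7% of all probes, and the arrays did not overlap in 64 (69.6%), against 60.4%. Without the dimmest 30% of probes, 61.9% of the probes left were called, with 28 member probes higher and 22 lower. This comparison shares its arrays with the other two, so its values are given beside theirs. Changes past 1 log2 unit were few: 5 probes higher and 3 lower in Sham against Mock, where 5.9% and 7.57% of all probes passed that size, and 1 higher and 0 lower in Vanillin against Sham, where 3.8% and 0.67% did. In Vanillin against Mock 1 member probe was higher and 1 lower by that size, against 3.68% and 4.01% of all probes.

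**Figure D1:**
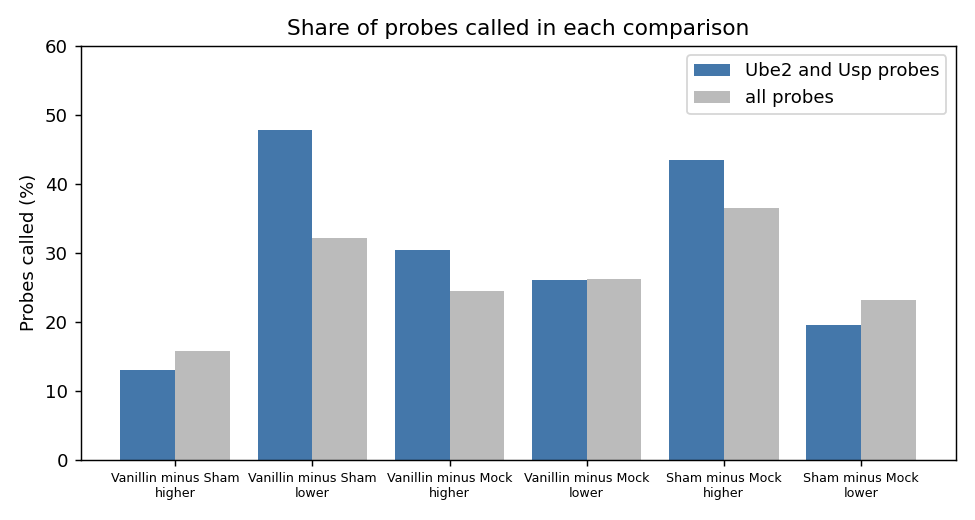
Percent of probes called higher or lower in each comparison, with one bar for the 92 Ube2 and Usp probes together and one for all probes of the array. In Vanillin against Sham, 47.8% of the Ube2 and Usp probes were called lower, against 32.2% of all probes. Dim probes are counted in both bars.

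Ube2t, Ube2c and Ube2s, from the list of E2 enzymes of mitosis and DNA repair, had the largest Ube2 changes in Sham against Mock. Of the 5 genes of this list, 4 were higher and none lower in Sham than in Mock (median 1.56 on the log2 scale), and 5 of 5 were lower in Vanillin than in Sham (median -0.73). The medians over all probes were 0.10 and -0.09. The shares called in these directions were 36.5% and 32.2% of all probes. The list was chosen with earlier results of these data known, so its counts describe these genes and are not an independent test. Ube2n, Ube2v1 and Ube2v2, which also act at damaged DNA, stand in a separate list. Of those 3, 2 were higher and 1 lower in Sham against Mock, and 1 was higher and none lower in Vanillin against Sham. Ube2c starts the ubiquitin chains with which the anaphase-promoting complex marks mitotic cyclins for destruction. Its intensity was 2125, 1898 and 1933 in the Vanillin arrays, 3326, 3082 and 3441 in the Sham arrays and 1036, 993 and 1061 in the Mock arrays. The 3 groups did not overlap, and Vanillin lay between Sham and Mock. The log2 change of Ube2c was 1.66 (SE 0.064, adjusted p = 2.66e-08) in Sham against Mock, -0.72 (adjusted p = 2.44e-05) in Vanillin against Sham and 0.93 (adjusted p = 2.69e-06) in Vanillin against Mock.

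Ube2s extends the chains that Ube2c starts. Its intensity was 8618, 7877 and 7550.1 in Vanillin, 14127, 14609 and 13948 in Sham and 4938, 4873 and 4592 in Mock. Again the groups stood apart with Sham highest. Ube2s changed by 1.56 log2 units (SE 0.06, adjusted p = 2.72e-08) in Sham against Mock and by -0.83 (adjusted p = 6.97e-06) in Vanillin against Sham, and Vanillin stayed above Mock by 0.74 (adjusted p = 9.32e-06). Ube2t is the E2 of the Fanconi anaemia pathway, which repairs crosslinks between DNA strands. It had 398, 382 and 428 in Vanillin, 807, 752 and 749 in Sham and 202, 219.6 and 222 in Mock. The Sham values were the highest and the Mock values the lowest, with no overlap. This is the largest increase of a member gene in Sham against Mock, at 1.77 log2 units (SE 0.061, adjusted p = 1.33e-08), with -0.91 (adjusted p = 4.31e-06) in Vanillin against Sham and 0.86 (adjusted p = 3.74e-06) in Vanillin against Mock.

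Genes of the cell cycle that are not members had the same order of groups. Their summed intensity over 18 genes was 42179 to 43705 in Vanillin, 57707 to 59475 in Sham and 22735 to 23271 in Mock. In Sham against Mock 17 of the 18 rose, and in Vanillin against Sham 14 fell and none rose. Of all probes, 36.5% rose in the first comparison and 32.2% fell in the second. Top2a, the DNA topoisomerase of dividing cells, changed by 1.94 in Sham against Mock, -0.59 in Vanillin against Sham and 1.36 in Vanillin against Mock. The part of the number of dividing cells in the levels of Ube2c, Ube2s and Ube2t was not tested.

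The Rad6 pair, Ube2a and Ube2b, which attach single ubiquitins to histone H2B and to the replication clamp PCNA, had another order. Ube2b had an intensity of 578, 544 and 560.4 in Vanillin, 960.2, 895 and 972 in Sham and 812, 824 and 805 in Mock. Vanillin was the lowest group, below Mock as well as below Sham. Ube2b fell by 0.73 log2 units (adjusted p = 4.23e-06) in Vanillin against Sham and by 0.52 (adjusted p = 2.36e-05) in Vanillin against Mock, and its change of 0.21 in Sham against Mock had an adjusted p of 0.00542. A dimmer probe of Ube2b gave -0.86 and -0.76 for the comparisons with Vanillin and 0.10 in Sham against Mock, which was not called. Ube2a had 2570.3, 2591 and 2490.2 in Vanillin, 3270.4, 3257 and 2996 in Sham and 3163, 3106 and 3034 in Mock. Sham and Mock overlapped, with a difference of 0.03 (95% interval -0.08 to 0.15), and Vanillin lay below both, by 0.31 log2 units against Sham (adjusted p = 0.000959) and 0.28 against Mock (adjusted p = 0.00147).

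**Figure D2:**
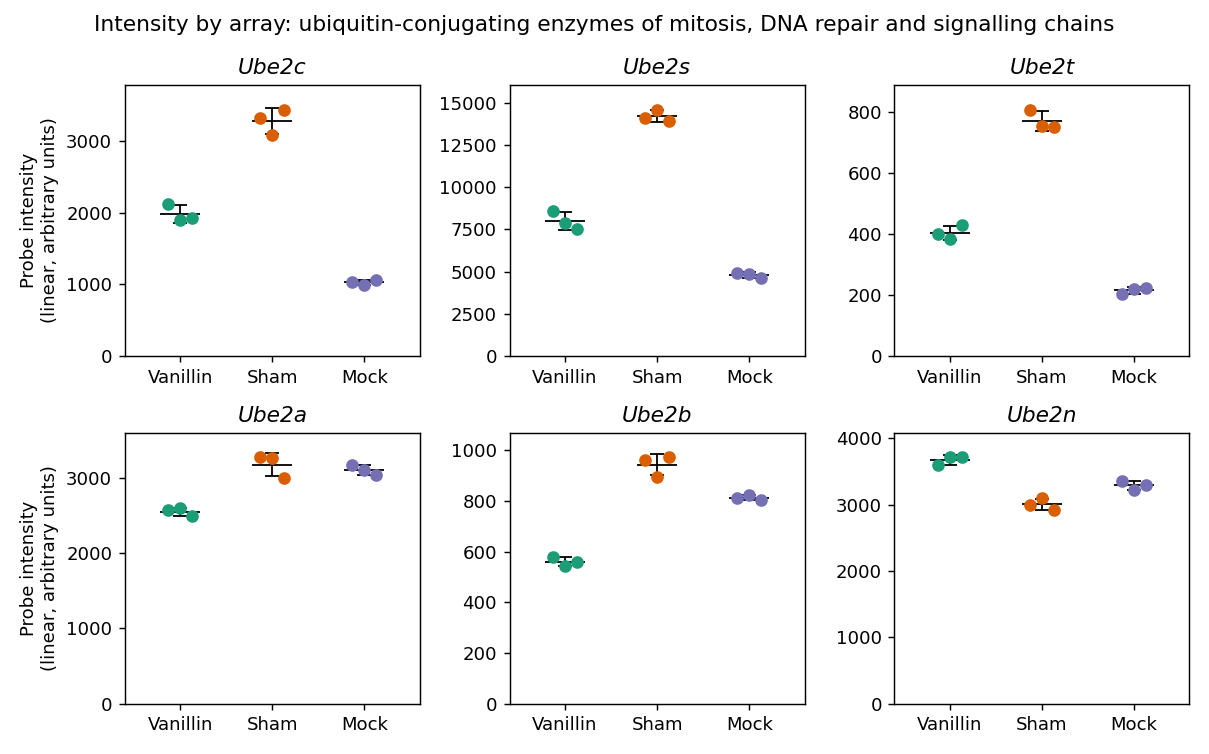
Probe intensity (linear scale from 0) of 6 conjugating enzymes on each of the 3 arrays of Vanillin, Sham and Mock; points are arrays and bars the mean ± SD. Ube2c, Ube2s and Ube2t are highest in Sham and lowest in Mock, Ube2a and Ube2b are lowest in Vanillin, and Ube2n is lowest in Sham.

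Ube2n pairs with the catalytically inactive Ube2v1 or Ube2v2 to build the signalling chains that activate NF-κB and mark damaged DNA. Its intensity was 3593, 3716 and 3714 in Vanillin, 2990.0, 3099 and 2924 in Sham and 3359, 3223 and 3304 in Mock. Vanillin was the highest group and Sham the lowest, without overlap. Ube2n rose by 0.29 log2 units (SE 0.045, adjusted p = 0.00078) in Vanillin against Sham and by 0.16 (adjusted p = 0.0178) in Vanillin against Mock, and fell by 0.13 (adjusted p = 0.0306) in Sham against Mock. The call in Sham against Mock was lost without Mock replicate 1 or 3 or Sham replicate 1 or 3 (adjusted p 0.0653 to 0.0921), and the call against Mock in Vanillin was lost without Mock replicate 2 or 3 or Vanillin replicate 2 (adjusted p 0.0534 to 0.0631). The partner Ube2v1 had 106, 135 and 125 in Vanillin, 148, 146 and 141 in Sham and 125, 103 and 115 in Mock. It was higher in Sham than in Mock by 0.31 (adjusted p = 0.0138; 0.051 without Mock replicate 2), and its difference of -0.23 in Vanillin against Sham was not called (adjusted p = 0.0579; 0.0299 without Vanillin replicate 2). For Ube2v2 the brighter probe changed by 0.15 in Sham against Mock (adjusted p = 0.0427), a call that 7 of the 9 left-out arrays ended (adjusted p 0.0507 to 0.15). A dimmer Ube2v2 probe had 137, 166 and 160.0 in Vanillin, 123, 167 and 169 in Sham and 75, 57.9 and 47.9 in Mock, a change of 1.15 in Sham against Mock (adjusted p = 0.000137) and of 0.02 in Vanillin against Sham, which was not called. The 2 Ube2v2 probes so gave increases of very different size.

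Ube2l6 is the E2 for the interferon-induced modifier Isg15. It had 992, 975 and 885 in Vanillin, 1100.1, 1032 and 1025 in Sham and 592, 644 and 611 in Mock. Both AOM and DSS groups lay above Mock, by 0.61 log2 units in Vanillin (adjusted p = 3.32e-05) and by 0.76 in Sham (adjusted p = 4.83e-06), and Vanillin against Sham gave -0.15, which was not called (adjusted p = 0.0794). Isg15 itself, which lies outside the rule, had 1779, 1872 and 2032 in Vanillin, 2863, 2770.3 and 2882 in Sham and 713, 683 and 658 in Mock, with log2 changes of 2.03 in Sham against Mock, -0.58 in Vanillin against Sham and 1.45 in Vanillin against Mock. Uba7, its activating enzyme, changed by 0.98 in Sham against Mock (adjusted p = 2.27e-06), by -0.59 in Vanillin against Sham (adjusted p = 0.000151) and by 0.38 in Vanillin against Mock (adjusted p = 0.00164).

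Among the widely used E2s of the Ube2d, Ube2e, Ube2l3 and Ube2w list, 3 of 7 measured genes were higher and 1 lower in Sham against Mock, and 1 was higher and 3 lower in Vanillin against Sham. All probes had 36.5% higher and 23.2% lower in the first comparison, and 15.7% and 32.2% in the second. One of these 7, Ube2d2b, carries an older symbol on the platform and lies outside the member rule. Ube2d3, a general partner of many E3 ligases, had 20597, 21205 and 22095 in Vanillin, 17227, 16969 and 17569 in Sham and 19665, 18036 and 17353 in Mock. Its brighter probe rose by 0.30 in Vanillin against Sham (adjusted p = 0.00236), while Sham against Mock gave -0.09 and was not called. The dimmer Ube2d3 probe gave -0.24 in Vanillin against Sham and was not called. Ube2l3, the E2 of the linear chain assembly complex, rose by 0.20 in Sham against Mock and fell by 0.28 in Vanillin against Sham, and its dimmer probe gave 0.34 and -0.46. Ube2d2a rose by 0.58 (adjusted p = 0.000149) in Sham against Mock on its brighter probe, while the dimmer one gave -0.04 and was not called.

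The E2s of proteasomal chains and of protein degradation at the endoplasmic reticulum held called genes in both directions. Of 6 measured genes, 3 were higher and 1 lower in Sham against Mock, and 1 was higher and 3 lower in Vanillin against Sham. The shares of all probes were 36.5% and 23.2%, then 15.7% and 32.2%, and 6 genes are few for such shares. Ube2j1, which sits in the endoplasmic reticulum membrane, had 3314, 3204 and 3159 in Vanillin, 4017, 4483 and 4258 in Sham and 2428, 2684 and 2531 in Mock. Sham was the highest group and Mock the lowest. Ube2j1 rose by 0.74 log2 units in Sham against Mock (adjusted p = 4.75e-06) and fell by 0.40 in Vanillin against Sham (adjusted p = 0.00058). Ube2g2, which serves the same degradation route, ran the other way, with 5372, 6167 and 5742 in Vanillin, 4590.0, 4906 and 4564 in Sham and 6629, 6683 and 6298 in Mock. It fell by 0.48 in Sham against Mock (adjusted p = 0.000131) and rose by 0.30 in Vanillin against Sham (adjusted p = 0.00413), and its dimmer probe gave -0.36, called, and 0.15, not called. Ube2g1 stood at 2643, 2567 and 2607 in Vanillin, 2793, 2749 and 2634 in Sham and 1919, 1884 and 1805 in Mock. Both AOM and DSS groups were above Mock, by 0.48 in Vanillin (adjusted p = 3.06e-05) and 0.54 in Sham (adjusted p = 8.03e-06), and Vanillin and Sham overlapped, with a difference of -0.06 (95% interval -0.17 to 0.04).

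Of the 7 large or atypical E2s, 4 were higher and 3 lower in Sham against Mock, and 1 was higher and 4 lower in Vanillin against Sham. The shares of all probes were 36.5% and 23.2%, then 15.7% and 32.2%, and 7 genes are few for such shares. Ube2q1, a long E2 with an extended N-terminal part, had 1729, 1785 and 1823 in Vanillin, 2356, 2204 and 2212 in Sham and 1201, 1139 and 1189 in Mock. Its groups did not overlap. It rose by 0.93 in Sham against Mock (adjusted p = 2.59e-07) and fell by 0.34 in Vanillin against Sham (adjusted p = 0.000494). Ube2z, which takes ubiquitin from the activating enzyme Uba6, rose by 0.40 in Sham against Mock (adjusted p = 0.000266) and fell by 0.32 in Vanillin against Sham (adjusted p = 0.00185). Ube2o, which works as E2 and E3 at once, fell by 0.27 in Sham against Mock (adjusted p = 0.00788), and its -0.07 in Vanillin against Sham was not called. Ube2cbp, a ligase-like protein named for binding Ube2c and not itself an E2, had 171, 166 and 187 in Vanillin, 223, 262 and 239 in Sham and 102, 139 and 136 in Mock, with 0.87 in Sham against Mock and -0.43 in Vanillin against Sham (adjusted p = 0.0104).

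**Figure D3:**
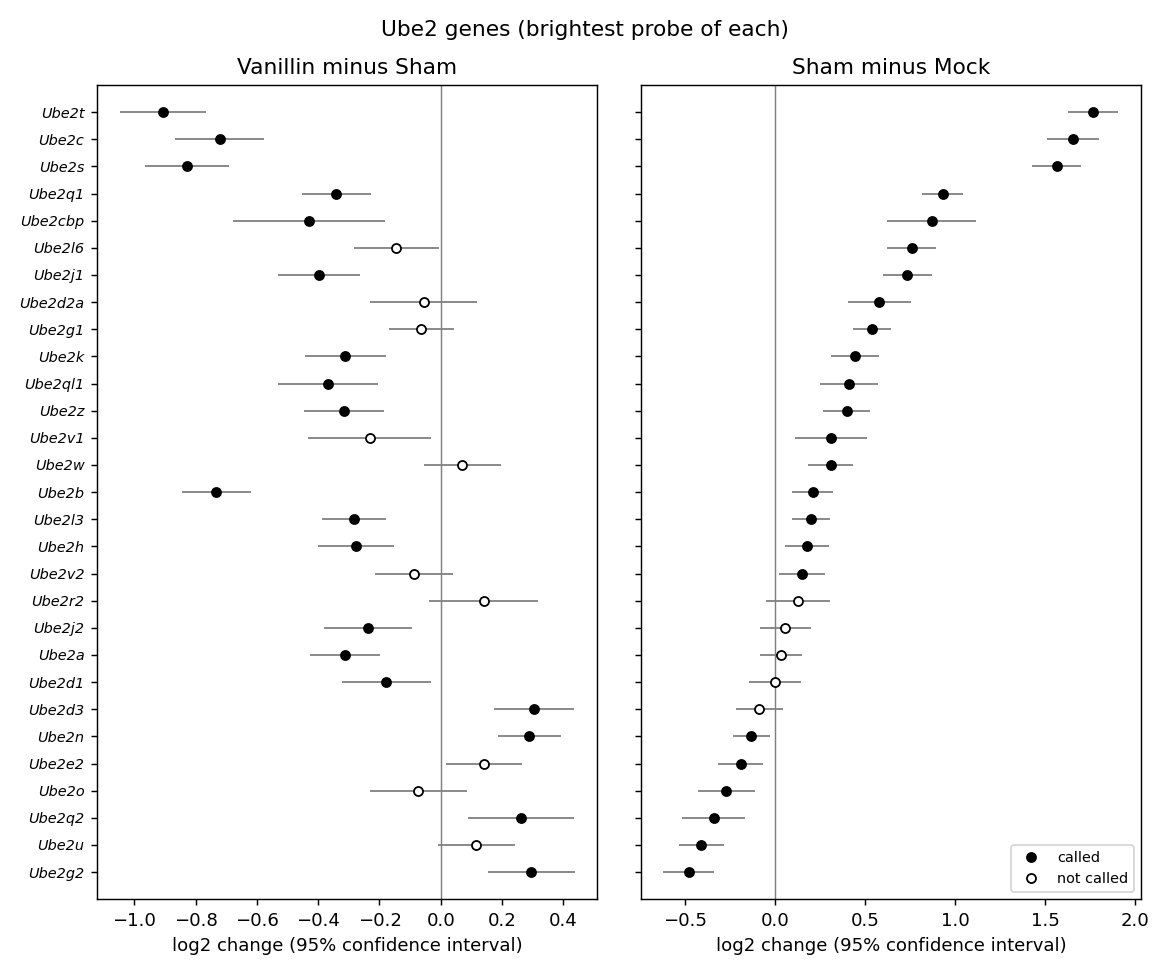
Log2 change with 95% interval of each Ube2 gene (brightest probe) in Vanillin against Sham on the left and Sham against Mock on the right; filled points passed the test. Of 29 genes, 4 were higher and 15 lower on the left, and 18 were higher and 6 lower on the right.

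On the protease side, the largest changes were decreases in Sham. Usp2 is a deubiquitinase whose transcript is driven by the circadian clock and which acts on cyclin D and on ion channels. Its intensity was 464, 455 and 503 in Vanillin, 115, 102 and 111 in Sham and 942, 927 and 916 in Mock. The 3 groups were far apart, with Sham lowest and Vanillin between. Usp2 fell by 2.92 log2 units in Sham against Mock (SE 0.058, adjusted p = 2.71e-10) and rose by 1.97 in Vanillin against Sham (adjusted p = 1.03e-08), and Vanillin stayed 0.95 below Mock (adjusted p = 1.33e-06). Since Sham was dim, the added constant of 16 bears on the size: with 1 the changes were -3.08 and 2.11, and with 64 they were -2.52 and 1.64.

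Usp13 acts in autophagy and interferon signalling. It had 142, 149.6 and 152 in Vanillin, 75.4, 73.0 and 78.1 in Sham and 460.2, 463 and 431 in Mock. The order was that of Usp2, with no overlap. Usp13 fell by 2.35 in Sham against Mock (SE 0.051, adjusted p = 5.04e-10) and rose by 0.84 in Vanillin against Sham (adjusted p = 2e-06), between 0.60 and 0.96 with the other constants. Usp54, a little studied member, stood at 726, 691 and 638 in Vanillin, 551, 468 and 489 in Sham and 1240.5, 1332 and 1263 in Mock. It fell by 1.32 in Sham against Mock (adjusted p = 3.63e-07) and rose by 0.44 in Vanillin against Sham (adjusted p = 0.0012).

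Usp25 removes ubiquitin from TRAF adaptor proteins in interleukin and innate immune signalling. It had 4298, 4193 and 4245 in Vanillin, 2917, 3078 and 3072 in Sham and 5157, 5421 and 5164 in Mock, again with Sham lowest and no overlap. Usp25 fell by 0.79 in Sham against Mock (adjusted p = 4.96e-07), rose by 0.49 in Vanillin against Sham (adjusted p = 3.68e-05) and stayed 0.30 below Mock in Vanillin (adjusted p = 0.000497). Usp20, a deubiquitinase bound by the von Hippel-Lindau protein, had 2456, 2305 and 2052 in Vanillin, 2039, 1884 and 1666 in Sham and 3012, 3293 and 3149 in Mock. Both AOM and DSS groups lay below Mock, and the Vanillin and Sham arrays were close. Its change was -0.76 in Sham against Mock (adjusted p = 7e-05) and 0.28 in Vanillin against Sham (adjusted p = 0.0277), a call that was lost without Sham replicate 2 or 3 or Vanillin replicate 1 or 2 (adjusted p 0.0567 to 0.0866).

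The order with Vanillin above Sham and below Mock, which Usp2, Usp13, Usp54, Usp25 and Usp20 had, was also that of the squamous, adipocyte and skeletal muscle markers. In Sham against Mock all 15 squamous markers fell (median -6.19), as did 11 of 12 adipocyte markers (median -4.21) and 8 of 8 skeletal muscle markers (median -5.69). The other adipocyte marker was higher. In Vanillin against Sham 14, 10 and 7 of them rose, with medians of 5.30, 3.53 and 3.81, while 2 adipocyte markers and 1 skeletal muscle marker fell. Adipocyte markers summed to 101456 to 104230 in Vanillin, 5240 to 5298 in Sham and 121458 to 122766 in Mock. Skeletal muscle markers summed to 53988 to 58485 in Vanillin, 2989 to 3171 in Sham and 146882 to 155197 in Mock. Smooth muscle, a part of the colon wall, had the same order, with 46439 to 49726, 40278 to 43016 and 93183 to 94576 over 5 markers. All 5 fell in Sham against Mock (median -2.10), and 4 rose and none fell in Vanillin against Sham (median 0.38). In Sham, 5 squamous and 2 adipocyte markers had a mean under 50, and none of the 8 skeletal muscle markers did. Ube2g2 and, outside the members, the deubiquitinases Otud1 and Otub2 had this order of groups as well. The part of these tissues in the levels of the 5 Usp genes, or of Ube2g2, Otud1 and Otub2, was not tested.

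A further pair of proteases was lower in both AOM and DSS groups. Usp4, which acts on TGF-β and NF-κB pathway proteins, had 3130.3, 2992 and 3474 in Vanillin, 2841, 2715 and 3216 in Sham and 4337, 4112 and 4467 in Mock. Usp53, a tight junction protein, had 2058, 1976 and 1806 in Vanillin, 2155, 2113 and 2132 in Sham and 2897, 3420.2 and 3156 in Mock. Vanillin was below Mock by 0.43 for Usp4 (adjusted p = 0.00174) and 0.69 for Usp53 (adjusted p = 4.4e-05), and Sham was below Mock by 0.56 for each. Vanillin against Sham gave 0.13 for Usp4 (adjusted p = 0.216) and -0.13 for Usp53 (adjusted p = 0.161), neither called.

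**Figure D4:**
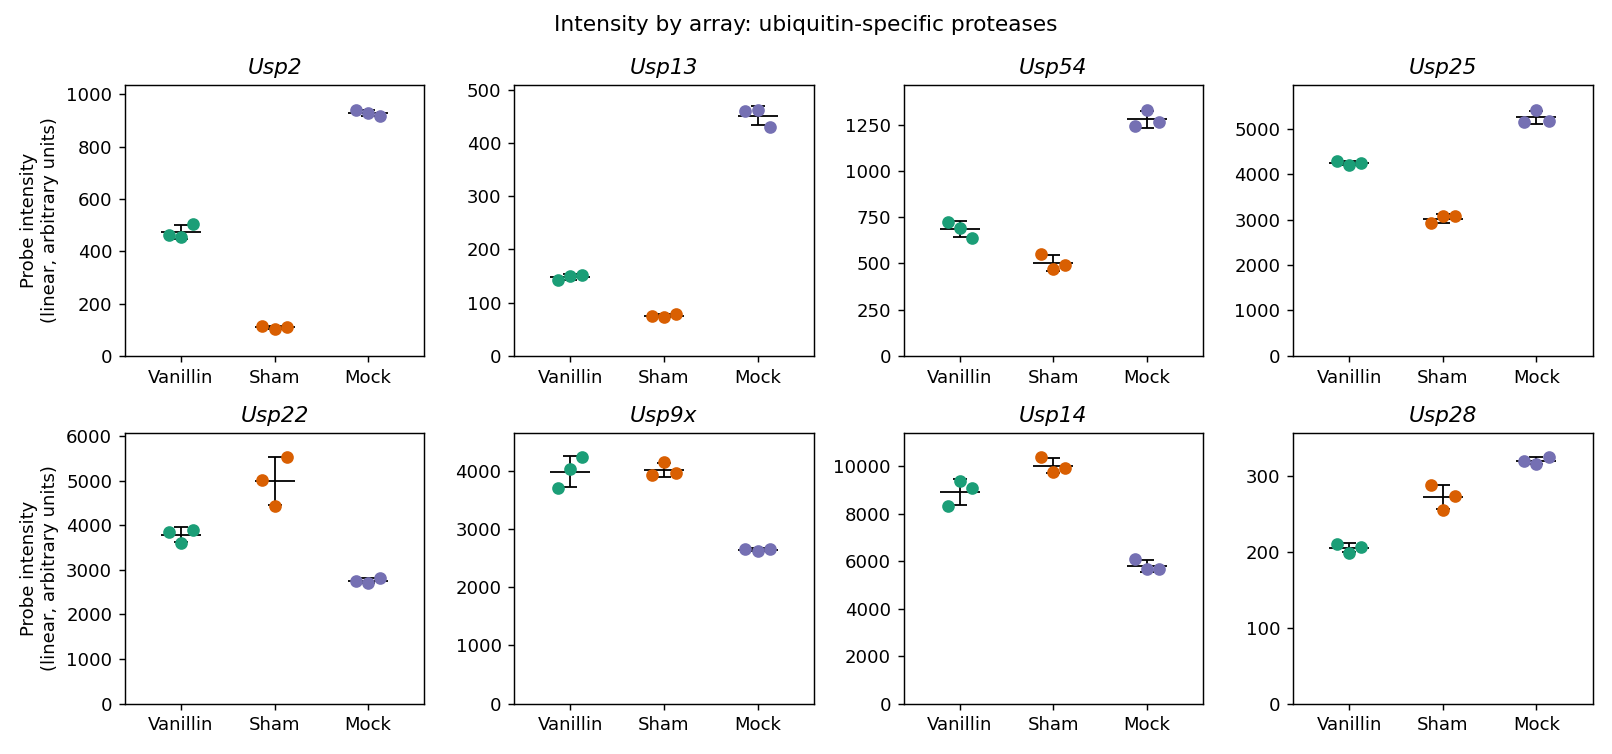
Probe intensity (linear scale from 0) of 8 ubiquitin-specific proteases on each of the 3 arrays of Vanillin, Sham and Mock; points are arrays and bars the mean ± SD. Usp2, Usp13, Usp54 and Usp25 are lowest in Sham, Usp22 is highest in Sham, Usp9x and Usp14 are lower in Mock than in the other groups, and Usp28 is lowest in Vanillin.

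Of 13 listed proteases of chromatin and DNA repair, 7 were higher, 1 lower and 5 not called in Sham against Mock (median 0.29), and 2 were higher, 7 lower and 4 not called in Vanillin against Sham (median -0.20). All probes leaned the same way, with 36.5% higher in Sham against Mock (median 0.10) and 32.2% lower in Vanillin against Sham (median -0.09). Usp22, the histone deubiquitinase of the SAGA complex, had 3856, 3597 and 3904 in Vanillin, 5004, 4435 and 5522 in Sham and 2747, 2696 and 2809 in Mock. Every Sham array lay above every Vanillin array and every Mock array lay below. Usp22 rose by 0.85 in Sham against Mock (SE 0.078, adjusted p = 1.23e-05) and fell by 0.39 in Vanillin against Sham (adjusted p = 0.00307). Usp1, which takes ubiquitin off the Fanconi protein that Ube2t modifies, had 1965, 1793 and 1726 in Vanillin, 2247, 2356 and 2313 in Sham and 1348, 1495 and 1414 in Mock. Its change was 0.69 in Sham against Mock (adjusted p = 1.09e-05) and -0.33 in Vanillin against Sham (adjusted p = 0.00223), the same directions as Ube2t. Usp49, another histone deubiquitinase, had 472, 392 and 417 in Vanillin, 609, 651 and 629 in Sham and 452, 466 and 412 in Mock. Vanillin and Mock overlapped, with -0.05 between them, not called, while Usp49 rose by 0.49 in Sham against Mock and fell by 0.55 in Vanillin against Sham (adjusted p = 0.000372). Usp44, which guards the mitotic spindle checkpoint, differed from these, with 276, 286 and 259 in Vanillin, 201, 242 and 248 in Sham and 171, 172 and 172 in Mock. It was 0.63 above Mock in Vanillin (adjusted p = 0.000137) and 0.24 above Sham (adjusted p = 0.0301), a call that was lost without Sham replicate 1 or Vanillin replicate 1 or 2 (adjusted p 0.0612 to 0.097).

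Another 3 members, outside that list, also stood highest in Sham. Usp43 had the largest increase of a protease in Sham against Mock, with 1672, 1663 and 1484 in Vanillin, 2073, 2128 and 1833 in Sham and 768, 929.5 and 944 in Mock. It rose by 1.18 in Sham against Mock (SE 0.095, adjusted p = 4.83e-06) and gave -0.32 in Vanillin against Sham (adjusted p = 0.0211; 0.0654 to 0.0751 without Sham replicate 1 or 2 or Vanillin replicate 3). Usp11, which acts in DNA repair and TGF-β signalling, had 285, 285 and 261 in Vanillin, 411, 432 and 381 in Sham and 185, 249 and 219 in Mock. Vanillin lay above Mock by 0.33 (adjusted p = 0.0184; 0.0572 without Vanillin replicate 2) and below Sham by 0.53 (adjusted p = 0.0019). Usp42, a p53-linked deubiquitinase, had 1472, 1414 and 1402 in Vanillin, 2028, 1928 and 1861 in Sham and 1189, 1205 and 1097 in Mock, with no overlap and changes of 0.73 in Sham against Mock and -0.44 in Vanillin against Sham.

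In the proteasome and membrane list, 2 of 10 genes were higher and 2 lower in Sham against Mock, and 1 was higher and 2 were lower in Vanillin against Sham. Of all probes, 59.7% and 47.9% were called in these comparisons, and 10 genes are few for such a share. Usp14 is bound to the proteasome and trims chains from arriving substrates. Its intensity was 8313, 9397 and 9078 in Vanillin, 10384, 9765 and 9924 in Sham and 6115, 5689 and 5664 in Mock. Both AOM and DSS groups lay well above Mock, by 0.61 in Vanillin (adjusted p = 3.26e-05) and 0.78 in Sham (adjusted p = 3.87e-06). The fall of 0.17 in Vanillin against Sham had an adjusted p of 0.048. That call was lost with the replicate number as a block (adjusted p = 0.0877, or 0.0736 with the block set only for the Sham and Vanillin arrays). It was also lost without any one of 7 arrays, all but Mock replicate 1 and Vanillin replicate 2 (adjusted p 0.0644 to 0.134). A dimmer Usp14 probe gave 0.28 in Sham against Mock, -0.23 in Vanillin against Sham (adjusted p = 0.00451) and 0.05, not called, in Vanillin against Mock. Usp9x, an X-linked protease of signalling and survival proteins, had 3702, 4027 and 4235 in Vanillin, 3935, 4155 and 3958 in Sham and 2664, 2623 and 2654 in Mock. It was 0.59 above Mock in Vanillin (adjusted p = 2.99e-05) and 0.60 above Mock in Sham (adjusted p = 1.64e-05), and Vanillin and Sham overlapped, with a difference of -0.01 (95% interval -0.14 to 0.12).

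Usp28, Usp31 and Usp27x had their lowest values in Vanillin. Usp28, which stabilises the Myc oncoprotein and takes part in the DNA damage response, had 211, 199 and 207 in Vanillin, 288, 256 and 275 in Sham and 320.3, 317 and 325 in Mock. Vanillin lay below Sham, and Sham below Mock, without overlap. Usp28 fell by 0.60 in Vanillin against Mock (adjusted p = 1.55e-05), by 0.38 in Vanillin against Sham (adjusted p = 0.000417) and by 0.22 in Sham against Mock (adjusted p = 0.00556). Usp27x, an X-linked relative of Usp22, had 278, 255 and 259 in Vanillin, 367, 347 and 320.1 in Sham and 389, 389 and 369 in Mock. It fell by 0.51 in Vanillin against Mock and by 0.37 in Vanillin against Sham (adjusted p = 0.00118), and the -0.15 in Sham against Mock was not called (adjusted p = 0.0695; 0.032 without Sham replicate 1). Usp31, an inhibitor of NF-κB activation, had 679, 602 and 551 in Vanillin, 792, 745 and 744 in Sham and 939.6, 975 and 933 in Mock, with falls of 0.63 in Vanillin against Mock and 0.31 in each of the other 2 comparisons. Another Usp31 probe gave -0.53, -0.24 and -0.29 for Vanillin against Mock, Vanillin against Sham and Sham against Mock, all called, while the dimmest probe, near an intensity of 50, was not called in any.

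Usp7 and Usp15 are among the best known members and changed little. Usp7, which stabilises Mdm2 and p53, had 3456, 3974 and 3850.1 in Vanillin, 3448, 3320.3 and 3523 in Sham and 3476, 3016 and 3317 in Mock. The groups overlapped, and of the 3 comparisons of this brighter probe only Vanillin against Mock passed, at 0.20 (adjusted p = 0.0435). That call was lost without any one of 7 arrays, which were Mock replicate 2 or 3, Vanillin replicate 2 or 3 and each Sham array (adjusted p 0.0548 to 0.146). The dimmer Usp7 probe gave 0.06 in Vanillin against Mock, -0.12 in Vanillin against Sham and 0.17 in Sham against Mock, none of them called. Usp15, which acts on TGF-β receptors, had 2898, 2756 and 3159.8 in Vanillin, 2864, 3009 and 3070.4 in Sham and 2698, 2839 and 2739 in Mock. No comparison passed for Usp15: the 95% intervals were -0.16 to 0.11 in Vanillin against Sham, -0.03 to 0.25 in Sham against Mock and -0.05 to 0.23 in Vanillin against Mock. The inflammatory and interferon list as a whole had 1 of 9 genes higher and 5 lower in Sham against Mock (median -0.31) and 3 higher and 3 lower in Vanillin against Sham (median -0.02). The shares of all probes were 36.5% and 23.2%, then 15.7% and 32.2%, and 9 genes are few for such shares. The list is not separate from the genes described above. Its smallest p-values in Sham against Mock were those of Usp2, Usp13, Usp25 and Usp11, with Usp11 the 1 higher gene. Usp2, Usp13 and Usp25 had the order of groups of the tissue markers. Usp6nl, a Rab GTPase-activating protein that takes its name from USP6 and is not a protease, met the symbol rule and rose by 0.59 in Sham against Mock and fell by 0.28 in Vanillin against Sham.

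**Figure D5:**
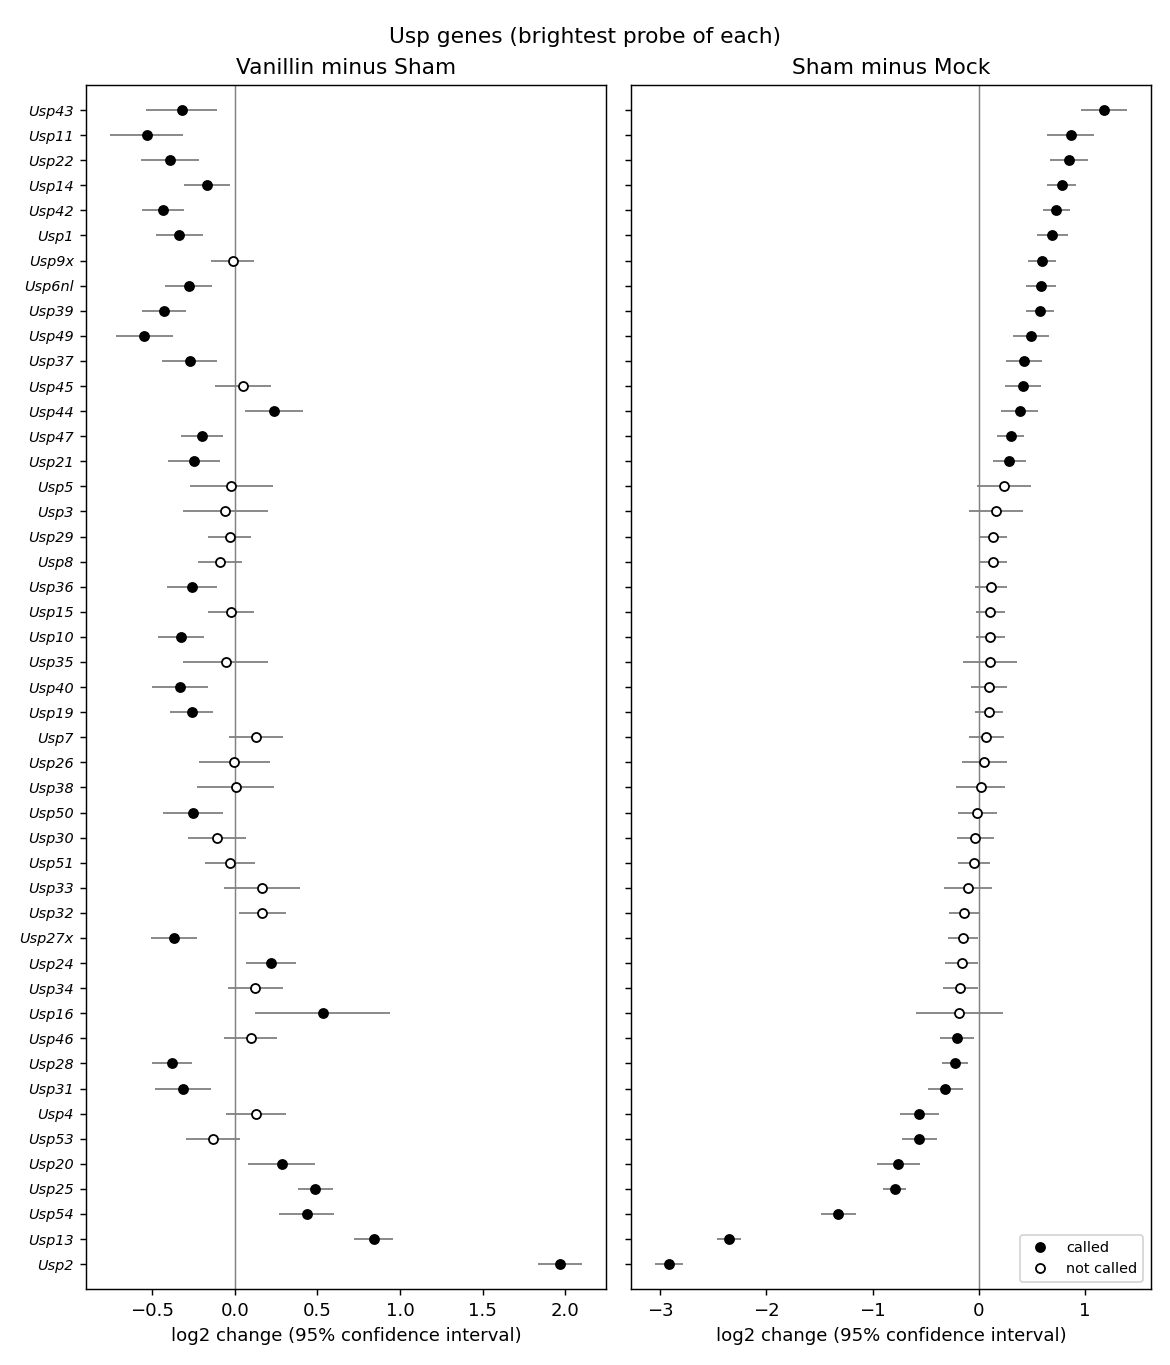
Log2 change with 95% interval of each Usp gene (brightest probe) in Vanillin against Sham on the left and Sham against Mock on the right; filled points passed the test. Usp2 and Usp13 lie farthest from 0 on both sides, at 1.97 and 0.84 on the left and -2.92 and -2.35 on the right.

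More than 1 probe was present for 15 member genes, which gives a check within the arrays. All probes of a gene had the same call in 9 of the 15 in Sham against Mock, in 9 in Vanillin against Sham and in 4 in Vanillin against Mock. Opposite calls occurred in Vanillin against Mock in 2 genes, Ube2w and Usp19. Ube2w, which attaches ubiquitin to the N-terminus of proteins, had 6270.3, 6356 and 6420.0 in Vanillin, 6074, 5648 and 6435 in Sham and 4982, 4891 and 4757 in Mock on one probe, and 116, 104 and 114 in Vanillin, 175, 138 and 160.5 in Sham and 164, 171 and 159 in Mock on the other. The brighter probe gave 0.38 in Vanillin against Mock (adjusted p = 0.000408) and the dimmer one -0.51 (adjusted p = 0.00066). Usp19, anchored in the endoplasmic reticulum membrane, gave -0.16 (adjusted p = 0.0407; 0.0525 to 0.135 without any one of 6 arrays, which were each Mock array, Sham replicate 3 and Vanillin replicate 2 or 3) on its brighter probe and 0.56 (adjusted p = 6.54e-05) on its dimmer one. In Vanillin against Sham both Usp19 probes fell, by 0.26 and 0.28. The files used here do not say which transcripts the probes of a gene detect, so these genes have no single value.

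Other parts of the ubiquitin system were read from lists of genes. For comparison, 36.5% of all probes were higher and 23.2% lower in Sham against Mock. In Vanillin against Sham, 15.7% were higher and 32.2% lower. Of 6 measured modifiers, 5 were higher and none lower in Sham against Mock (median 0.39), and none was higher and 3 were lower in Vanillin against Sham. Nedd8, which activates the cullin ligases, gave 0.47 in Sham against Mock and -0.32 in Vanillin against Sham. Of 5 E1 enzymes, 1 was higher in Sham against Mock and 1 was lower in Vanillin against Sham, in both cases Uba7. Among 14 subunits and activators of the anaphase-promoting complex, with which Ube2c and Ube2s work, 6 were higher and 1 lower in Sham against Mock (median 0.18), and none was higher and 6 were lower in Vanillin against Sham (median -0.15). Its largest subunit Anapc1 rose by 0.57 and fell by 0.55 in these comparisons.

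Deubiquitinases of families other than Usp were mixed, with 12 of 27 higher and 8 lower in Sham against Mock and 5 higher and 7 lower in Vanillin against Sham. All probes had 36.5% higher and 23.2% lower in the first comparison, and 15.7% and 32.2% in the second. Otud1 had 1235, 1165 and 1047 in Vanillin, 317, 249 and 289.9 in Sham and 2329.8, 2526 and 2411 in Mock. It fell by 3.02 in Sham against Mock and rose by 1.95 in Vanillin against Sham, and Otub2 changed in the same directions, by -2.25 and 1.37. Tnfaip3, the NF-κB inhibitor also called A20, had 5919, 6599 and 6316 in Vanillin, 5695, 5815 and 5578 in Sham and 2997, 2951 and 3000.3 in Mock. It was 1.07 above Mock in Vanillin and 0.93 above Mock in Sham, and 0.14 in Vanillin against Sham was not called (adjusted p = 0.0518). Uchl5, a deubiquitinase that, like Usp14, binds the proteasome, had 1911, 1687 and 1811 in Vanillin, 234, 243 and 252 in Sham and 208, 207 and 219.6 in Mock. It was high in Vanillin alone, by 2.81 log2 units against Sham (adjusted p = 8.46e-10) and past the threshold against Mock too (adjusted p = 1.1e-09), on the single probe of this gene.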

How the data were processed

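Per the labels' protocols, RNA was extracted with the RNeasy kit, amplified and labelled with Cy5. The deposited values are one probe intensity per array on a linear scale, and the submitters' processing notes name limma without role or version. Sorted log2 values differ by at most 0.109 between arrays, so the arrays had been brought to nearly one distribution, and 3 to 14 probes per array lie below 0, as after a background subtraction; neither step by the authors is stated. Which scanner, background method or filters were used was not given in the sources used here.

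The platform annotation gave 20377 probes 1 symbol and 6046 probes none, and 2126 old symbols were updated through RefSeq synonyms. Values under 0 were set to 0, 16 was added, and lmFit and eBayes of limma (version 3.58.1, under R 4.3.3) fitted the log2 values as 3 group means. P-values were adjusted by Benjamini-Hochberg over 26423 probes and called under 0.05, two-sided. The fit was tested on simulated data. A gene is given by its brightest probe. Named members were the 8 largest called changes per direction and comparison without overlap of the groups, 3 short E2 lists, Usp14, Usp7, Usp9x, Usp22, Usp15 and Usp28, and genes with opposite probes; other lists gave up to 4 genes with the smallest p. Usp6nl and the dimmer probes of named genes were added after the values were seen. The members and lists were chosen with earlier results of these data known.

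The deviations of same-numbered arrays correlated weakly and positively in Vanillin and Sham (0.17, 0.13 and 0.20 for replicates 1, 2 and 3). In the other pairs of groups the correlations were negative, down to -0.29. The labels name no shared animal or day, and these correlations do not show whether the arrays are paired. Alternatives changed the added constant, the dim probes, the scaling, the variance model, the arrays in the fit, array weights, the replicate block and each array. The mean of all probes of a gene replaced its brightest probe only in the counts of genes called.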

Additional observations from a re-analysis of the deposited data

How the results depend on the processing

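The counts of member probes called kept within 1.5 times the reported ones under all alternatives run, with 1 exception: 7 in place of 12 probes were higher in Vanillin against Sham without Vanillin replicate 2. Leaving out each array in turn gave 7 to 13 probes higher and 36 to 43 lower in Vanillin against Sham, 37 to 42 higher and 15 to 19 lower in Sham against Mock, and 23 to 29 higher and 18 to 25 lower in Vanillin against Mock. With the replicate number as a block, 11 probes were higher and 42 lower in Vanillin against Sham, and with the Sham and Vanillin arrays alone, an alternative added after the data were seen, 13 and 42. The block gave 40 and 19 in Sham against Mock, where the correlations were negative (-0.10, -0.02 and -0.12). It gave 27 and 23 in Vanillin against Mock (correlations -0.29, -0.10 and -0.15). Among the 35 genes named by rule, the blocks changed 1 call in Vanillin against Sham, that of Usp14. In the comparisons with Mock the block moved Ube2n (adjusted p = 0.0572) and Usp27x (0.0479) across the threshold in Sham against Mock and Usp7 (0.0736) in Vanillin against Mock. Fits of the 6 arrays compared gave 8 higher and 40 lower in Vanillin against Sham. Of these 35 genes, each at its brightest probe, 31 kept their call under every alternative in Sham against Mock. In Vanillin against Sham 29 did and in Vanillin against Mock 28, and no called change reversed. These counts did not change the probe of a gene. Ube2w thus counts as kept in Vanillin against Mock, although its 2 probes had opposite calls there. The cause of the lost calls was not tested. About 20% of probes lay under an intensity of 50, where the added constant limits the size of a change, as in Usp50 and Usp51, whose means were under 50 in every group.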

Other observations

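The members below entered the counts of called probes and are described here with their single arrays. Usp34, a large protease of Wnt signalling, had 1442, 1358 and 1611 in Vanillin, 1361, 1273 and 1399 in Sham and 1549, 1442 and 1564 in Mock on its brighter probe, which was not called in any comparison. Its dimmer probe had 73.1, 65.4 and 72.0 in Vanillin, 133, 109 and 136 in Sham and 62.4, 61.6 and 61.6 in Mock, with 0.86 in Sham against Mock (limma adjusted p = 1.11e-05) and -0.71 in Vanillin against Sham (limma adjusted p = 9.04e-05). Usp16, a histone deubiquitinase, had the widest spread of any member in Sham, with 9673, 10095 and 8968 in Vanillin, 6081, 5124 and 9274 in Sham and 7483, 7766 and 7299.6 in Mock, so that 1 Sham array lay among the Vanillin values. It was called higher in Vanillin against Sham, at 0.53 (SE 0.181, limma adjusted p = 0.0377), and not in the other comparisons. The call was lost without any one of 7 arrays, all but Mock replicate 1 and Sham replicate 3 (adjusted p 0.0521 to 0.112), and with the replicate number as a block (adjusted p = 0.0599). The change was 0.35 without Sham replicate 2 and 0.78 without Sham replicate 3 (adjusted p = 0.000266). Both genes were chosen after their values were seen.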
